A study of Homo sapiens with 23 samples.

Results

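These 81 genes had higher RNA in cells overexpressing ONECUT2 (OC2) than in their reference cells, in both prostate cancer lines tested, LNCaP and LAPC4. They were selected on the readout itself. A gene had to reach a mean of 5 CPM (counts scaled to a library total of 1000000) in both overexpressing groups. The ratio of group means, with 0.5 CPM added to each, had to be at least 2 for LNCaP OC2_OE to LNCaP Control, for LNCaP OC2_OE to LNCaP shCon and for LAPC4 OC2_OE to LAPC4 Vec. Of 57608 genes listed in both count tables, 10082 passed the level. Of these, 279 passed both LNCaP ratios, 642 passed the LAPC4 ratio and 81 passed all. The 81 are 29.03% of the LNCaP genes, 12.6% of the LAPC4 genes and 0.803% of the genes at the required level. Because these 3 contrasts chose the genes, values in them are a description without a test.

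The series holds 23 RNA sequencing libraries in 9 groups. LNCaP is an androgen-sensitive prostate adenocarcinoma line, grown with 10% serum, and was sequenced as OC2_OE (overexpression, 2 libraries), Control (2), shOC2 (a short hairpin against OC2, 2) and shCon (control hairpin, 2). LAPC4, another androgen-responsive prostate cancer line, was grown with 10% serum and the synthetic androgen R1881 at 1 nM, as OC2_OE (3) and Vec (3). A further set of LNCaP cultures received, over 7 days, enzalutamide at 10 µM together with an OC2 inhibitor at 10 µM (the combination, 3), enzalutamide alone at 10 µM (3) or vehicle (3). No source used here says whether the overexpressing and hairpin lines are clones or pools, or what the Control cells carry. The labels name 1 hairpin per arm, the same one for both shOC2 libraries and another for both shCon libraries.

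OC2 is a transcription factor with a CUT domain and a homeodomain that binds DNA directly and can raise or lower its targets. It acts in the development of liver, pancreas and neurons. In prostate cancer it is known as a driver of lineage plasticity, the loss of the androgen-receptor-dependent luminal programme. Enzalutamide blocks the androgen receptor, the main therapeutic target of this disease.

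The LNCaP libraries held 20964025 to 23272088 counts, those of LAPC4 28586064 to 30465978 and those of the drug experiment 22615580 to 28241076. All 8 luminal prostate markers checked averaged at least 1 CPM in every group, and the 5 blood markers summed to at most 0.403 CPM in any library. The summed luminal markers were 3816 to 3919 CPM in LNCaP OC2_OE against 6362 to 6448 CPM in Control, and 1047 to 1059 CPM in LAPC4 OC2_OE against 2115 to 2404 CPM in Vec. The 3 basal markers summed to 319 to 338 CPM in LAPC4 OC2_OE and 17.9 to 103.5 CPM in Vec, and the 5 stromal markers to 17 to 19.4 CPM in LAPC4 OC2_OE and 3.37 to 5.70 CPM in Vec. In LNCaP the stromal sums were 13.1 to 13.4 CPM in OC2_OE, 13.8 to 14.2 CPM in Control and 31.5 to 37.9 CPM in shCon. The part of other cell types in the values below was not tested. In bulk RNA, fewer cells of a type and less RNA per cell cannot be told apart. Combination replicate 2 and the first enzalutamide column stood apart from the others of their group for several of the 81 genes, and their values are given where they touch a result.

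ONECUT2, the gene introduced, lies on chromosome 18 from 57435685 to 57491297 (hg38, plus strand, GENCODE 29). It stood at 313 and 288 CPM in LNCaP OC2_OE, against 23.4 and 29.6 CPM in Control and 21.9 and 22.6 CPM in shCon. In LAPC4 it reached 963, 814 and 913 CPM in OC2_OE, against 13.6, 17.2 and 15.6 CPM in Vec. No overexpressing library overlapped a reference library, and the ratio was 56.2 in LAPC4, 11.1 in LNCaP over Control and 13.2 over shCon.

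Low reference levels were common among the 81 genes, with fewer well expressed before overexpression, as the choice by ratio favours. The median ratio was 9.53 over Control, 8.44 over shCon and 8.61 over Vec, while the 10082 genes at the required level had medians of 1.02, 0.917 and 1.03. In all 3 reference groups, 22 genes averaged under 1 CPM and 7 (ONECUT2, HSD17B11, PYGL, HSPG2, FSCN1, PRKCA and ADGRG6) at least 5 CPM. The same counts were not made over the 10082 genes, so nothing is read from them. For every one of the 81 genes, all overexpressing libraries lay above all reference libraries of the same line, as the choice of genes favours. By edgeR, 31.6% of 17046 genes tested were called higher and 29.3% lower in LNCaP OC2_OE against Control. Against shCon these shares were 33.2% and 30.8% of 17182 genes, and in LAPC4 32.1% and 29% of 16904 genes. Nothing is read from these shares for genes chosen in the same contrasts. Between overexpressing libraries of a line, the highest value of a gene exceeded the lowest by a median factor of 1.08 in LNCaP and 1.14 in LAPC4, and by at most 1.40 (ECHDC1) and 1.41 (HSPG2).

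**Figure D1:**
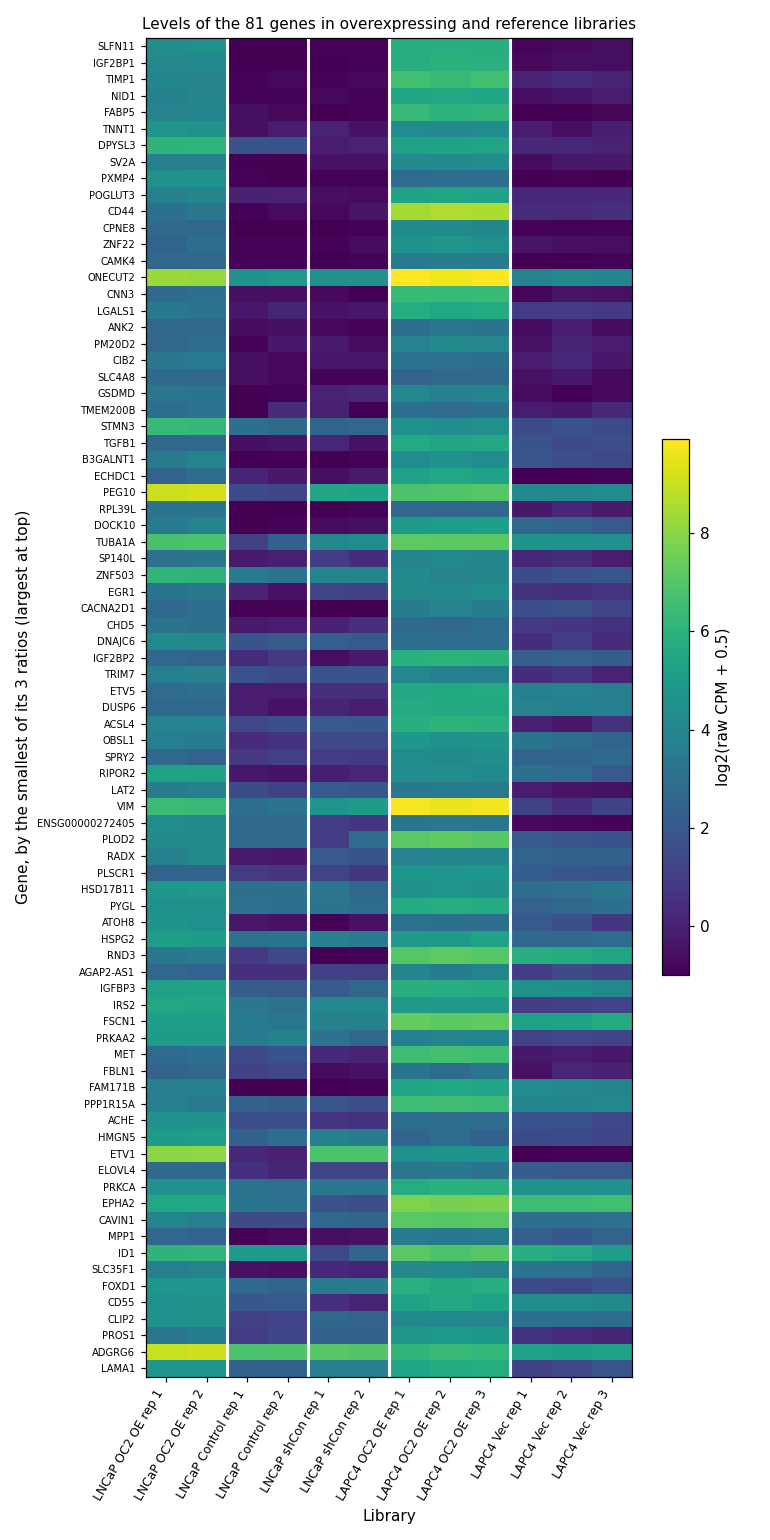
Heat map of log2(raw CPM + 0.5) for the 81 genes (rows, ordered by the smallest of their 3 ratios) in each LNCaP and LAPC4 library (columns). OC2_OE columns stand left of their references, and the upper rows hold the 17 genes with ratios of at least 10 in all 3 contrasts.

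The 17 genes with a ratio of at least 10 in all 3 contrasts have varied functions. SLFN11, a nuclear protein that acts at stressed replication forks and sensitises cells to DNA-damaging drugs, is on chromosome 17 from 35350305 to 35373701 (minus strand). It had 20.4 and 22.02 CPM in LNCaP OC2_OE and no count in either Control library, at least 158.9-fold higher over a floor of 3 counts per library. In LAPC4 it had 55.2, 57.95 and 55.6 CPM in OC2_OE and 0.0700, 0.104 and 0.168 CPM in Vec. The Vec libraries were thus close to 0 and every OC2_OE library far above them.

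IGF2BP1, an oncofetal RNA-binding protein on chromosome 17 (48997412 to 49055650, plus strand), had 17.2 and 16.7 CPM in LNCaP OC2_OE and no count in Control, at least 127-fold higher. In LAPC4 it had 55.7, 63.95 and 60.3 CPM in OC2_OE, against 0.105, 0.173 and 0.168 CPM in Vec. Its reference level was as low as that of SLFN11 in both lines.

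The paralogue IGF2BP2 was expressed at 5.95 and 4.88 CPM in LNCaP OC2_OE, with 0.738 and 1.25 CPM in Control and 0.177 and 0.354 CPM in shCon. In LAPC4 it stood at 62.04, 66.8 and 63.4 CPM in OC2_OE and 4.34, 4.91 and 4.21 CPM in Vec. Unlike IGF2BP1 it was detected in every reference library of LAPC4 at several CPM. PEG10, an imprinted gene derived from a retrotransposon (chromosome 7, 94656325 to 94669695, plus strand), differed between the LNCaP references. It had 525 and 598 CPM in OC2_OE, against 2.26 and 1.93 CPM in Control and 42.8 and 39.5 CPM in shCon, so its ratio was 216 over Control and 13.5 over shCon. In LAPC4 the PEG10 values were 115, 122 and 129 CPM in OC2_OE and 18.2, 17.3 and 18.6 CPM in Vec.

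Genes of the extracellular matrix and its turnover are described together, a grouping by role made after the values were seen. TIMP1, an inhibitor of matrix metalloproteinases, had 15.4 and 13.6 CPM in LNCaP OC2_OE, against 0.0461 and 0.0859 CPM in Control. In LAPC4 it had 96.8, 81.03 and 95.8 CPM in OC2_OE and 0.560, 0.865 and 0.539 CPM in Vec. NID1, a nidogen that links basement membrane proteins, was expressed at 13.3 and 15.3 CPM in LNCaP OC2_OE and at 42.97, 44.4 and 43.5 CPM in LAPC4 OC2_OE, with no reference library above 0.404 CPM. Both genes were near 0 without overexpression.

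The laminin chain LAMA1 was nearest to the ratio threshold, at 26.1 and 25.9 CPM in LNCaP OC2_OE, 4.70 and 4.55 CPM in Control and 12.3 and 12.9 CPM in shCon. PLOD2, a lysyl hydroxylase of collagen, had ratios of 2.84 over Control, 4.07 over shCon and 37.9 in LAPC4, where it stood at 138, 152 and 135 CPM in OC2_OE and 3.71, 3.18 and 2.86 CPM in Vec. The shCon libraries lay far apart for PLOD2, at 1.42 and 6.72 CPM. The basement membrane proteoglycan HSPG2 and the fibulin FBLN1 were also among the 81.

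Cytoskeletal genes included several known from neurons. DPYSL3, a protein of the axonal growth cone, had 67.2 and 70.95 CPM in LNCaP OC2_OE, 3.04 and 2.88 CPM in Control and 0.399 and 0.531 CPM in shCon. In LAPC4 it had 37.3, 38.4 and 41.2 CPM in OC2_OE, against 0.665, 0.692 and 0.572 CPM in Vec. STMN3, a microtubule-destabilising stathmin, had 80.5 and 76.5 CPM in LNCaP OC2_OE, 7.42 and 6.40 CPM in Control and 5.23 and 5.53 CPM in shCon. Both were far above their references in each library.

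TUBA1A, an alpha-tubulin abundant in developing neurons, had 110.1 and 112 CPM in LNCaP OC2_OE, against 1.56 and 4.79 CPM in Control and 16.6 and 20.04 CPM in shCon. Its sequence is close to that of other tubulin genes, so its counts are uncertain. SV2A, a glycoprotein of synaptic vesicles, had 12.96 and 12.6 CPM in LNCaP OC2_OE and no count in Control, at least 95.6-fold higher, and 17.7, 17.3 and 19.7 CPM in LAPC4 OC2_OE with at most 0.337 CPM in Vec. TNNT1, the slow skeletal muscle troponin T, had 25.4 and 23.02 CPM in LNCaP OC2_OE, with at most 0.576 CPM in the LNCaP references.

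VIM, the intermediate filament protein of mesenchymal cells (chromosome 10, 17228259 to 17237593, plus strand), had the largest LAPC4 ratio of the 81, 429.8, and LNCaP ratios of 10.2 over Control and 2.92 over shCon. It stood at 879, 761 and 850.2 CPM in LAPC4 OC2_OE and 1.75, 0.899 and 1.65 CPM in Vec. In LNCaP it had 86.1 and 84.6 CPM in OC2_OE, 7.19 and 8.72 CPM in Control and 26.3 and 31.5 CPM in shCon. CD44, a hyaluronan receptor used as a stem and basal cell marker, had 343, 393 and 383 CPM in LAPC4 OC2_OE against 0.805, 0.726 and 0.943 CPM in Vec. Its LNCaP OC2_OE level was 7.73 and 9.99 CPM against 0.0461 and 0.129 CPM in Control. LGALS1 (galectin-1) had 45.9 to 52.9 CPM, CNN3 (a calponin) 80.8 to 84.2 CPM and CAVIN1 (a coat protein of caveolae) 133 to 139 CPM in LAPC4 OC2_OE.

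Receptors and ligands differed in how far the lines were alike. MET, the hepatocyte growth factor receptor, had 90.2, 101 and 95.03 CPM in LAPC4 OC2_OE, against 0.315, 0.381 and 0.303 CPM in Vec. In LNCaP it had 6.62 and 7.48 CPM in OC2_OE, 2.12 and 2.84 CPM in Control and 0.664 and 0.575 CPM in shCon. The ephrin receptor EPHA2 had 206 to 225 CPM in LAPC4 OC2_OE, against 92.2 to 96.9 CPM in Vec, already a high level. TGFB1, a secreted growth factor, had 50.2, 42.04 and 48.1 CPM in LAPC4 OC2_OE, against 3.01, 2.15 and 2.56 CPM in Vec.

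ADGRG6, an adhesion G-protein-coupled receptor needed for Schwann cell myelination in mouse and zebrafish, had the highest mean of the 81 in both LNCaP reference groups. Its values were 507 and 551 CPM in LNCaP OC2_OE, 113 and 119 CPM in Control and 136 and 121 CPM in shCon, and its LAPC4 ratio of 2.05 was next to the threshold. The insulin receptor adaptor IRS2 had ratios of 4.70 over Control, 2.65 over shCon and 13.9 in LAPC4.

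Among lipid enzymes and carriers, FABP5, a fatty-acid-binding protein whose near-identical pseudogenes make its counts uncertain, had 14.3 and 14.8 CPM in LNCaP OC2_OE and at most 0.184 CPM in the LNCaP references. In LAPC4 it had 83.5, 65.97 and 71.2 CPM in OC2_OE and 0, 0 and 0.0673 CPM in Vec. PXMP4, a peroxisomal membrane protein, was higher in LNCaP than in LAPC4, with 22.6 and 23.3 CPM in LNCaP OC2_OE and 6.60, 7.24 and 7.18 CPM in LAPC4 OC2_OE. No reference library held more than 0.0461 CPM of it. ACSL4, an acyl-CoA synthetase for arachidonate, had ratios of 5.15 over Control, 3.58 over shCon and 56.2 in LAPC4.

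Transcription factors other than ONECUT2 included ETV1, ETV5, EGR1, FOXD1, ATOH8 and ZNF503. ETV1, an ETS factor whose gene is rearranged in LNCaP (chromosome 7, 13891228 to 13991425, minus strand), had 255 and 268 CPM in OC2_OE, 0.646 and 0.516 CPM in Control and 112 and 113 CPM in shCon. Its ratio was therefore 242 over Control and 2.31 over shCon, the widest gap between the LNCaP references among the 81. In LAPC4 ETV1 had 21.8, 23.7 and 23.6 CPM in OC2_OE and 0, 0.0346 and 0.0337 CPM in Vec.

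ATOH8, a basic helix-loop-helix factor, had 24.4 and 22.04 CPM in LNCaP OC2_OE and at most 0.323 CPM in the LNCaP references. In LAPC4 it had 7.91, 7.68 and 7.25 CPM in OC2_OE against 3.60, 2.70 and 1.18 CPM in Vec. ID1, which binds and inhibits factors of the same class, had 67.4 and 69.6 CPM in LNCaP OC2_OE, 31.96 and 29.1 CPM in Control, and 2.17 and 5.35 CPM in shCon.

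The LNCaP reference groups differed for several genes. Control was at least 2-fold above shCon for 9 of the 81 (11.1%) and at least 2-fold below it for 11 (13.6%), compared with 2.99% and 6.05% of the 10082 genes at the required level. The ratio was larger in LAPC4 than both LNCaP ratios for 42 genes, smaller than both for 32 and between them for 7. Across the 81 genes, which share their libraries, Spearman's rho between log2 ratios was 0.254 for LNCaP over Control with LAPC4 over Vec, and 0.153 for LNCaP over shCon with LAPC4 over Vec. Over the 10082 genes these were 0.0498 and 0.0448. Just inside the threshold lay LAMA1, ADGRG6 and PROS1 with smallest ratios of 2.03, 2.05 and 2.13, and just outside lay FZD8, MCAM and DST with 1.98, 1.97 and 1.96.

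**Figure D2:**
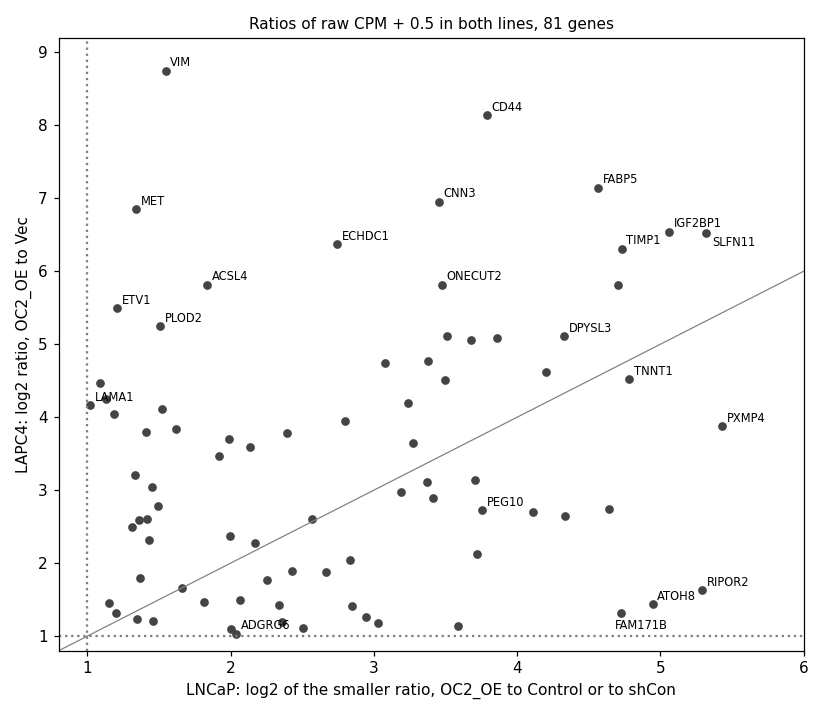
Each dot is a gene, with the log2 of its smaller LNCaP ratio (over Control or shCon) on the x axis and the log2 of its LAPC4 ratio on the y axis. Dotted lines mark the 2-fold threshold and the diagonal equal ratios. VIM, MET and ETV1 sit high at the left, RIPOR2 and ATOH8 low at the right, and SLFN11 and IGF2BP1 high in both lines.

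The vehicle libraries are LNCaP cells that the selection did not use, but they stand in another table, so levels are only set side by side. Of the 81 genes, 80 have a row there. LNCaP OC2_OE was at least 2-fold above vehicle for 73 (91.25%) of them, with a median ratio of 7.18, compared with 5.15% of 9919 genes at the required level. The OC2_OE libraries also set the selection, so this is no independent support. The 7 others were EGR1, HSPG2, AGAP2-AS1, PPP1R15A, ETV1, ADGRG6 and LAMA1, and none of the 80 lay below its vehicle mean. In all 18 libraries without overexpression, 15 genes stayed under 1 CPM: SLFN11, IGF2BP1, TIMP1, NID1, FABP5, SV2A, PXMP4, CD44, CPNE8, ZNF22, CAMK4, CNN3, ANK2, PM20D2 and RPL39L.

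The hairpin comparison sets cells with lowered OC2 against control hairpin cells. ONECUT2 had 12.8 and 12.8 CPM in shOC2 and 21.5 and 22.2 CPM in shCon, on the TMM-scaled library size used for all tested comparisons from here on (log2 fold change -0.77, SE 0.09, edgeR adjusted p = 4.84e-05). Of the 81 genes 53 passed the low-count filter, and the other 28 had less than 1 CPM in each of the 4 libraries (highest 0.620), so a fall was not detectable in them. Higher in shOC2 were 23 of the 53 (43.4%, against 27.3% of all 16585 genes tested), 14 were lower (26.4%, against 26.8%) and 16 were not called. The 14 include ONECUT2, the gene introduced and the target of the hairpin. The median log2 fold change was 0.42 over the 53 and 0.00 over all genes. ATOH8, FBLN1, CIB2, DPYSL3 and RIPOR2 had 0.130, 0.174, 0.304, 0.457 and 0.522 CPM in shCon. They passed the filter with the help of shOC2 libraries, so a fall was hardly detectable. CD55, at 0.241 CPM in shOC2, could hardly be called higher. The shCon libraries were also used to choose the genes, whose OC2_OE level had to be at least 2-fold above shCon. This comparison thus shares libraries with the selection, which favours rises and disfavours falls in shOC2. Without shOC2 replicate 1 the lower calls numbered 8, and without shOC2 replicate 2 they numbered 9. The labels do not say that replicates came from separate cultures, so p-values measure only the spread between these libraries, which may be technical. Marker sums of cell types also differed between these arms. The 8 luminal markers summed to 7877 to 7907 CPM in shOC2 and 6167 to 6432 CPM in shCon, the 5 stromal markers to 20.4 to 26.5 CPM in shOC2 and 31.5 to 37.9 CPM in shCon and the 3 hepatic markers to 5.14 to 6.25 CPM in shOC2 and 1.46 to 1.51 CPM in shCon. The 3 endothelial markers summed to 2.43 to 3.00 CPM in shOC2 and 7.97 to 9.60 CPM in shCon, with PECAM1 and CDH5 at 0 in all 4 libraries. The part of these in the calls was not tested.

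**Figure D3:**
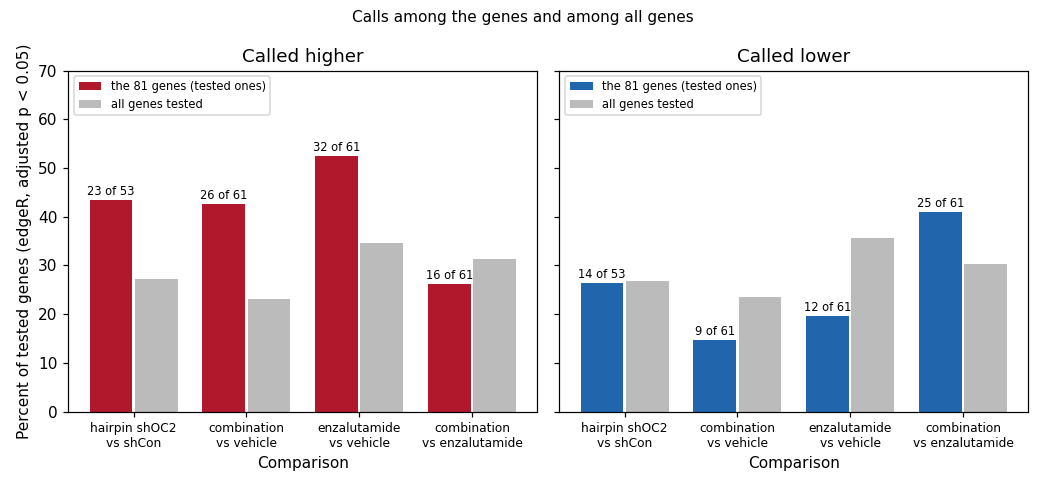
Bars give the percent of tested genes called higher or lower by edgeR at an adjusted p under 0.05 in 4 comparisons, for the tested ones of the 81 genes (coloured) and for all genes tested (grey). In the hairpin comparison 14 of 53 genes were lower, close to the share of all genes.

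The lower genes moved opposite to overexpression. PEG10 had 3.51 and 4.47 CPM in shOC2, against 42.1 and 38.8 CPM in shCon (log2 fold change -3.34, SE 0.11, edgeR adjusted p = 2.71e-08). VIM had 3.75 and 4.05 CPM in shOC2, against 25.9 and 30.9 CPM in shCon (log2 fold change -2.86, SE 0.13, edgeR adjusted p = 1.63e-07). FOXD1, a forkhead factor, had 2.29 and 2.81 CPM in shOC2, against 11.01 and 11.5 CPM in shCon (log2 fold change -2.14). The groups did not overlap for any of these. ADGRG6 had 54.7 and 46.9 CPM in shOC2 and 133 and 119 CPM in shCon, and fell by 1.31 on the log2 scale. IRS2 had 5.21 and 4.71 CPM in shOC2 and 15.7 and 16.1 CPM in shCon, and fell by 1.68. These changes are relative to shCon. On raw CPM, Control averaged 26.5 for ONECUT2, 2.10 for PEG10 and 7.955 for VIM, against 22.2, 41.2 and 28.9 in shCon. PEG10 in Control was thus below its shOC2 mean of 3.91 CPM. FOXD1 and IRS2 averaged 5.755 and 8.92 CPM in Control, against 11.4 and 16.2 CPM in shCon. Only ADGRG6 was close in both, at 116 and 128 CPM. RADX, CD55, ELOVL4, PLSCR1 and SPRY2 were also lower, each under 5 CPM in all 4 libraries. The CD55 call ended without shOC2 replicate 1, without shOC2 replicate 2 and without shCon replicate 1 (log2 fold change -1.92, -1.31 and -1.22). It also ended by DESeq2 (adjusted p = 0.241) and with no low-count filter (edgeR adjusted p = 0.0674).

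The 23 higher genes moved in the same direction in shOC2 as with overexpression. IGFBP3, which binds insulin-like growth factors (chromosome 7, 45912245 to 45921874, minus strand), had 185 and 161 CPM in shOC2 against 3.79 and 5.69 CPM in shCon (log2 fold change 5.19, SE 0.13, edgeR adjusted p = 4.23e-09). RIPOR2, an inhibitor of the GTPase RhoA, had 12.4 and 19.6 CPM in shOC2 against 0.435 and 0.608 CPM in shCon (log2 fold change 4.92, SE 0.31, edgeR adjusted p = 1.23e-06). ID1 had 53.8 and 52.3 CPM in shOC2 against 2.13 and 5.25 CPM in shCon (log2 fold change 3.84, SE 0.21, edgeR adjusted p = 5.55e-07). None of these overlapped between the groups. On raw CPM, ID1 averaged 30.5 in Control, against 3.76 in shCon and 51.96 in shOC2. IGFBP3 and RIPOR2 averaged 3.95 and 0.269 CPM in Control, close to shCon (4.82 and 0.531 CPM). EPHA2, LAMA1 and ACSL4 rose by 1.94, 1.73 and 1.17 on the log2 scale. On raw CPM, EPHA2 averaged 8.53 in Control, 2.81 in shCon and 10.4 in shOC2, so shOC2 was close to Control. LAMA1 and ACSL4 averaged 4.63 and 2.32 CPM in Control, below shCon (12.6 and 3.56 CPM). DPYSL3 and FBLN1, also called higher, averaged 2.96 and 1.84 CPM in Control, above their shOC2 means of 2.27 and 1.34 CPM. On raw CPM, IGFBP3 and LAMA1 were the only genes of the 81 whose shOC2 mean reached the OC2_OE mean.

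In the combination arm, 61 of the 80 genes with a row could be tested against vehicle. The other 19 stayed under 1 CPM in all 9 drug libraries (highest 0.814). Higher were 26 (42.6%, against 23.2% of all 17438 genes tested), 9 were lower (14.75%, against 23.6%) and 26 were not called, with a median log2 fold change of 0.34 over the 61 and 0.01 over all genes. DOCK10, RND3, SLC4A8, MPP1, IGF2BP2, SLC35F1, POGLUT3, ATOH8, TGFB1 and FBLN1 averaged only 0.0811 to 0.357 CPM in vehicle. They passed the filter through a drug arm, so a fall was hardly detectable. PLOD2, LAMA1 and RIPOR2, at 0.122, 0.273 and 0.395 CPM in the combination arm, could hardly be called higher. ONECUT2 itself had 13.7, 15.98 and 13.3 CPM in the combination arm and 16.97, 16.7 and 14.1 CPM in vehicle, which overlap (log2 fold change -0.15, SE 0.15, edgeR adjusted p = 0.439).

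EGR1, an immediate early transcription factor (chromosome 5, 138465490 to 138469315, plus strand), had 176, 344 and 206 CPM in the combination arm, against 3.95, 8.43 and 4.35 CPM in vehicle (log2 fold change 5.44, SE 0.35, edgeR adjusted p = 3.13e-06). IGFBP3 had 244, 494 and 226 CPM in the combination arm, against 17.02, 14.96 and 18.9 CPM in vehicle (log2 fold change 4.24, SE 0.30, edgeR adjusted p = 4.96e-06). Combination replicate 2 was the highest for both. The same library was highest for ID1, with 120.2, 243 and 113 CPM in the combination arm and 19.4, 15.1 and 21.4 CPM in vehicle (log2 fold change 3.09). It was also highest for TUBA1A, with 99.8, 199.7 and 100.2 CPM in the combination arm and 26.3, 20.3 and 26.3 CPM in vehicle (log2 fold change 2.45). For OBSL1, a cytoskeletal linker, it was the lowest, with 22.5, 7.21 and 21.5 CPM in the combination arm and 3.80, 3.02 and 3.77 CPM in vehicle (log2 fold change 2.27). None of these arms overlapped. Without combination replicate 2, 22 genes were higher and 10 lower. The rise of PEG10, at 1.63, 2.85 and 2.09 CPM in the combination arm and 1.22, 1.07 and 0.387 CPM in vehicle, was then no longer called (edgeR adjusted p = 0.0657).

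Of the genes lower with the combination, LAMA1 had 0.272, 0.138 and 0.409 CPM in the combination arm, against 15.1, 21.97 and 16.6 CPM in vehicle (log2 fold change -6.01, SE 0.39, edgeR adjusted p = 3.09e-06). RIPOR2 had 0.227, 0.505 and 0.454 CPM in the combination arm, against 8.97, 13.3 and 7.73 CPM in vehicle (log2 fold change -4.65, SE 0.34, edgeR adjusted p = 6.25e-06). VIM had 4.58, 6.75 and 4.68 CPM in the combination arm, against 11.2, 13.3 and 12.8 CPM in vehicle (log2 fold change -1.22, SE 0.16, edgeR adjusted p = 0.000249). The arms did not overlap for any of these genes. HSD17B11 (a dehydrogenase found on lipid droplets), ETV1 and FSCN1 (an actin-bundling protein) fell by 1.32, 1.21 and 0.71 on the log2 scale.

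**Figure D4:**
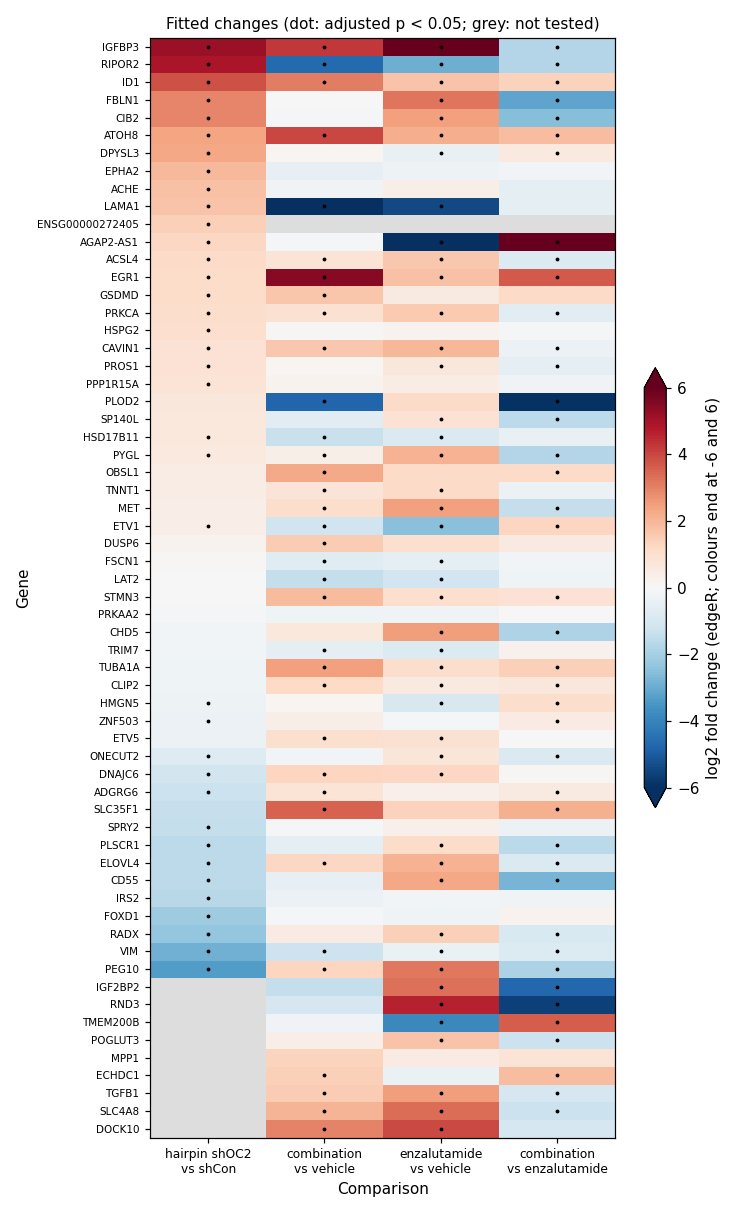
Colours give edgeR's log2 fold change of the 62 genes tested in at least 1 comparison (rows) in the 4 comparisons (columns), dots mark an adjusted p under 0.05 and grey marks a gene not tested. RIPOR2 and LAMA1 were higher in shOC2 and lower in both drug arms against vehicle, and IGFBP3 and ID1 were higher in all 3 contrasts.

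Enzalutamide alone was set against the same vehicle libraries, which both contrasts share. The enzalutamide columns hold whole counts where the other drug columns hold estimated counts, so they were counted in another way, and without TMM scaling the median of all genes was 0.32 higher (log2) in enzalutamide than in vehicle. The changes given are relative to that scaling, and the part of the counting in them was not tested. Higher were 32 of the 61 genes (52.5%, against 34.7% of all genes) and 12 were lower (19.7%, against 35.6%). DOCK10, RND3, SLC4A8, IGF2BP2, POGLUT3, ATOH8, TGFB1 and FBLN1, among those higher, averaged only 0.0811 to 0.357 CPM in vehicle. They passed the filter through a drug arm, so a fall was hardly detectable. AGAP2-AS1, TMEM200B and LAMA1, at 0.0104, 0.0929 and 0.413 CPM with enzalutamide, could hardly be called higher. The median log2 fold change was 0.94 over the 61 and 0.01 over all genes. ONECUT2 rose to 20.9, 30.4 and 27.03 CPM with enzalutamide, against 16.97, 16.7 and 14.1 CPM in vehicle (log2 fold change 0.71, SE 0.15, edgeR adjusted p = 0.00139). Across the drug arms, the endothelial markers summed to 5.62 to 9.07 CPM in the combination arm, 6.02 to 7.97 CPM with enzalutamide and 15.5 to 18.1 CPM in vehicle, with CDH5 at 0 in every combination and enzalutamide library. The hepatic markers summed to 0.745 to 1.31 CPM in the combination arm, 0.824 to 1.13 CPM with enzalutamide and 3.67 to 4.26 CPM in vehicle. The stromal markers summed to 31.2 to 37.9 CPM in the combination arm, 31.3 to 58.8 CPM with enzalutamide and 19.3 to 27.1 CPM in vehicle, and the luminal markers to 4780 to 4949 CPM in the combination arm, 4383 to 5272 CPM with enzalutamide and 4962 to 5435 CPM in vehicle. The part of these in the drug calls was not tested.

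IGFBP3 reached 1232, 962 and 1058 CPM with enzalutamide, against 17.02, 14.96 and 18.9 CPM in vehicle (log2 fold change 6.0, SE 0.32, edgeR adjusted p = 8.83e-08). PEG10 had 6.76, 10.1 and 7.41 CPM with enzalutamide, against 1.22, 1.07 and 0.387 CPM in vehicle (log2 fold change 3.17). MET had 6.09, 8.53 and 7.85 CPM with enzalutamide, against 0.926, 1.56 and 1.55 CPM in vehicle (log2 fold change 2.47). Each of these was separated from vehicle, as were CD55, which protects cells from complement, PYGL, a glycogen phosphorylase, and CAVIN1, with log2 fold changes of 2.32, 2.09 and 1.98.

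Lower with enzalutamide, LAMA1 had 0.335, 0.685 and 0.219 CPM (log2 fold change -5.42) and RIPOR2 1.22, 1.09 and 1.69 CPM (log2 fold change -2.91), beside the vehicle values above. ETV1 had 51.9, 27.1 and 29.1 CPM with enzalutamide and 200.4, 222 and 193 CPM in vehicle (log2 fold change -2.51). The first enzalutamide column was the highest of its group for ETV1, and still far under vehicle. The call of FSCN1 (log2 fold change -0.53) ended without vehicle replicate 2, vehicle replicate 3 or the third enzalutamide column, at edgeR adjusted p = 0.0512, 0.0671 and 0.0899. AGAP2-AS1, an antisense transcript, had 0, 0.0312 and 0 CPM with enzalutamide and 2.98, 2.83 and 2.90 CPM in vehicle. TMEM200B, a transmembrane protein, had 0.0914, 0.0934 and 0.0939 CPM with enzalutamide and 1.17, 2.14 and 0.918 CPM in vehicle. In the combination arm, which also received enzalutamide, AGAP2-AS1 had 2.77, 2.85 and 2.59 CPM and TMEM200B 1.13, 0.505 and 2.00 CPM. Neither was called between combination and vehicle. Among the drug libraries, only the enzalutamide columns, counted in another way, were near 0 for these genes. TMEM200B was also low in the LNCaP references, at 0.411 CPM in Control and 0.235 CPM in shCon (raw means, SD 0.581 and 0.332, n = 2 each). Exons of both overlap a gene on the other strand. The part of the counting in these values was not tested.

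The combination was then compared with enzalutamide alone, arms that differ by the OC2 inhibitor and, in these files, by the way of counting. Here 16 of the 61 genes were higher in the combination arm (26.2%, against 31.4% of all genes) and 25 were lower (41.0%, against 30.4%), with a median log2 fold change of -0.33 over the 61 and -0.02 over all genes. Without the scaling, the median over all genes was -0.25. RND3 and IGF2BP2, at 0.0459 and 0.0758 CPM in the combination arm, passed the filter through enzalutamide and could hardly be called higher. AGAP2-AS1, at 0.0104 CPM with enzalutamide, could hardly be called lower. ONECUT2 had 13.7, 15.98 and 13.3 CPM in the combination arm, against 20.9, 30.4 and 27.03 CPM with enzalutamide (log2 fold change -0.86, SE 0.15, edgeR adjusted p = 0.000528). PLOD2 had 0.136, 0.138 and 0.0908 CPM in the combination arm, against 14.96, 4.76 and 3.03 CPM with enzalutamide (log2 fold change -5.91, SE 0.80, edgeR adjusted p = 0.000117). CD55 had 1.31, 1.24 and 0.908 CPM in the combination arm, against 5.76, 8.19 and 10.2 CPM with enzalutamide (log2 fold change -2.79, SE 0.27, edgeR adjusted p = 9.36e-06). The arms did not overlap for these genes, although the first enzalutamide column stood apart for PLOD2.

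PEG10, PYGL, IGFBP3 and MET fell by 1.88, 1.75, 1.75 and 1.41 on the log2 scale in the combination arm relative to enzalutamide. EGR1 was higher in the combination arm than with enzalutamide, where it had 17.4, 16.2 and 23.8 CPM (log2 fold change 3.66). TUBA1A, ID1, ETV1, HMGN5 and STMN3 were higher too, with log2 fold changes of 1.41, 1.38, 1.30, 1.06 and 0.88. This contrast and that of enzalutamide with vehicle use the same enzalutamide libraries, so their calls are not independent.

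**Figure D5:**
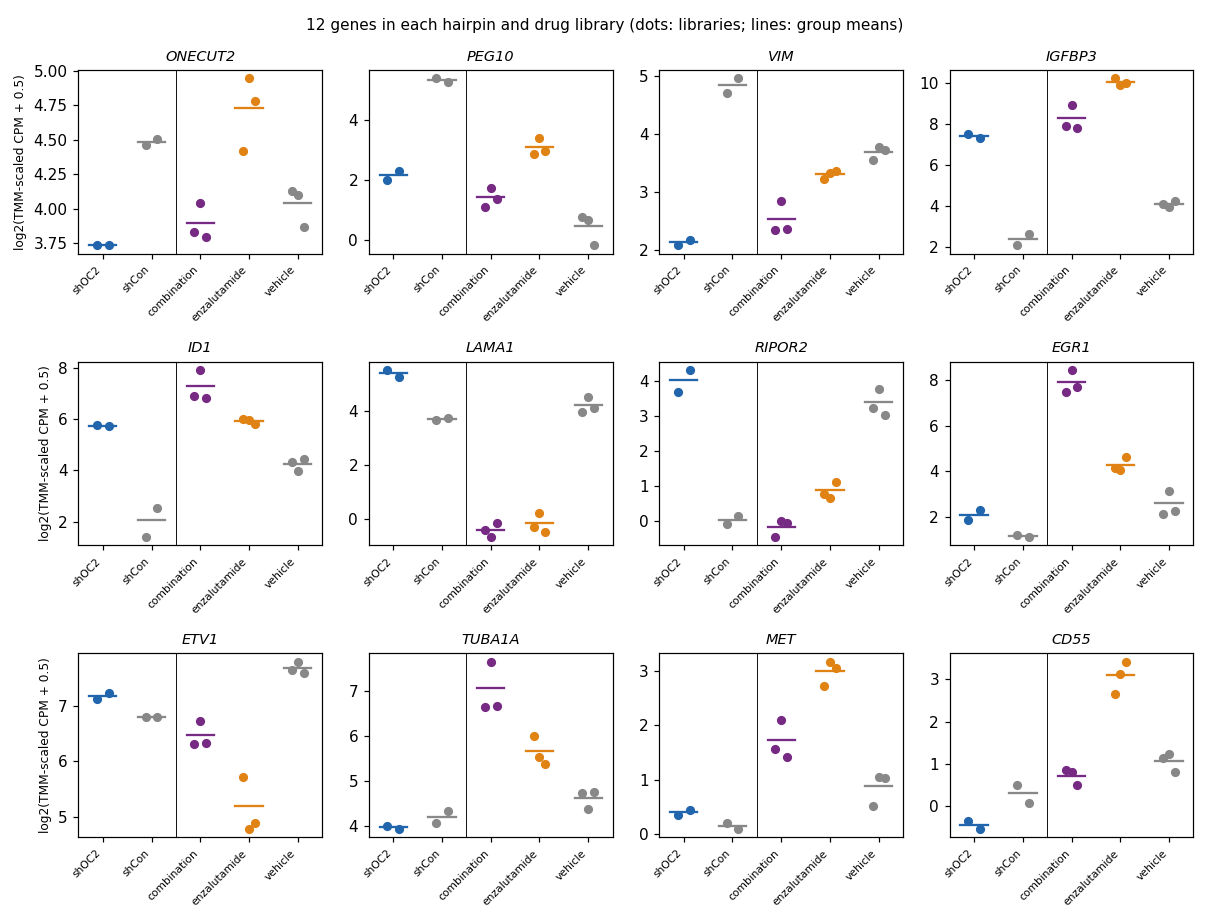
Log2(TMM-scaled CPM + 0.5) of 12 genes in each hairpin and drug library. Dots are libraries, and the hairpin and drug experiments were scaled separately. MET and CD55 are highest with enzalutamide among the drug arms, EGR1 and TUBA1A with the combination, and LAMA1 and RIPOR2 are low in both drug arms.

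The hairpin and combination contrasts, whose libraries are separate, were set side by side for the 52 genes tested in both. Higher in shOC2 and in the combination arm were 9: IGFBP3, ID1, ATOH8, EGR1, GSDMD, PRKCA, ACSL4, CAVIN1 and PYGL. They were 17.3% of the 52, against 8.75% of all 13900 genes tested in both. VIM was the only one of the 52 lower in both (1.92%, against 9.97% of all genes). The shCon libraries also set the selection, which favours higher and disfavours lower hairpin calls, so neither share is independent support. For ATOH8, at 0.130 CPM in shCon and 0.276 CPM in vehicle, a fall was hardly detectable in either contrast. LAMA1, RIPOR2, ETV1 and HSD17B11 were higher in shOC2 than in shCon and lower in the combination arm than in vehicle, and ADGRG6, PEG10, DNAJC6 and ELOVL4 had the opposite pair of calls. Each of these mixed pairs made up 7.69% of the 52, against 7.65% and 6.23% of all genes. ADGRG6 had 785, 1035 and 744 CPM in the combination arm, against 479, 510.1 and 466 CPM in vehicle (log2 fold change 0.82, SE 0.15, edgeR adjusted p = 0.0015). Some of these calls rest on single libraries or settings. That of ATOH8 ended without shOC2 replicate 1, shOC2 replicate 2 or shCon replicate 1 (log2 fold change 2.5, 2.24 and 1.65). The ATOH8 hairpin call also ended by DESeq2 (adjusted p = 0.109) and with no low-count filter (edgeR adjusted p = 0.0593). That of EGR1 ended without shOC2 replicate 2 (edgeR adjusted p = 0.0639), and that of GSDMD, the pore-forming gasdermin D, without any 1 of the 4 libraries (edgeR adjusted p = 0.0602 to 0.128), by DESeq2 (adjusted p = 0.26) and with no low-count filter (edgeR adjusted p = 0.0515). The combination call of GSDMD ended without combination replicate 1, vehicle replicate 1 or vehicle replicate 3 (edgeR adjusted p = 0.052, 0.0771 and 0.0527). PYGL and HSD17B11 lost their hairpin calls without shOC2 replicate 1, shOC2 replicate 2 or shCon replicate 2. They also lost them by DESeq2 (adjusted p = 0.0715 and 0.0565) and with no low-count filter (edgeR adjusted p = 0.11 and 0.172). The combination call of PYGL ended without combination replicate 1 or 3 or without any 1 of the vehicle libraries (edgeR adjusted p = 0.0653 to 0.125). It also ended by DESeq2 (adjusted p = 0.0717), with no low-count filter (edgeR adjusted p = 0.0876) and with the replicate block (edgeR adjusted p = 0.0518).

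Promoter sequences were searched for the core letters that ONECUT factors bind. RefSeq windows (GRCh38.p14, 250 bases before to 50 after each start) were found for 66 of the 81 genes, 105 windows in all. The letters ATTGAT (reverse complement ATCAAT) and ATCGAT (its own reverse complement) were searched on both strands. At least 1 was found for 4 genes (6.06%), against 5.09% of 8257 genes at the required level and 8.47% of all 27305 genes in the table. The share among the 81 genes was thus close to that of other promoters. The 5 windows that hold a core are shown, with the core in capitals, because they are all the matches found. HMGN5, a nucleosome-binding protein, has 1 core starting 62 bases and another 3 bases before its start. PM20D2 is a peptidase-family protein and ANK2 an ankyrin that ties membrane proteins to the cytoskeleton.
HMGN5 (chrX:81201864-81202163, minus strand): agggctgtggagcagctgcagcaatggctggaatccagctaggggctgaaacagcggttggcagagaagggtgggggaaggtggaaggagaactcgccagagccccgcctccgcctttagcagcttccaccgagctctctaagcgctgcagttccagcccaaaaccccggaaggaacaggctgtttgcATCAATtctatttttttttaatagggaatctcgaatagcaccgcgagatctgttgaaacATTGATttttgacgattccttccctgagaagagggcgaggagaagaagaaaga
PM20D2 (chr6:89145805-89146104, plus strand): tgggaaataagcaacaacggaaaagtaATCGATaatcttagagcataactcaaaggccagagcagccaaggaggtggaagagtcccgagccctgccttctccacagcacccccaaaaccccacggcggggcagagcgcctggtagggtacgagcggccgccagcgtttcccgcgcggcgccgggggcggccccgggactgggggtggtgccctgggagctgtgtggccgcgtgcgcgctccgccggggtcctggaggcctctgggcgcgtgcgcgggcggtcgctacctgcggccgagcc
DPYSL3 (chr5:147453643-147453942, minus strand): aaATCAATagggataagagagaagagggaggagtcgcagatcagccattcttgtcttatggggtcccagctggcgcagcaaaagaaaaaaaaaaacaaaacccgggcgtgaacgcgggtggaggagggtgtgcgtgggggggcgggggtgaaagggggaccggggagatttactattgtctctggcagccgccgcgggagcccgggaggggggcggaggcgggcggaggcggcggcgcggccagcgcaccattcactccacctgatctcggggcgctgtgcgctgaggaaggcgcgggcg
ANK2, upstream window (chr4:112705372-112705671, plus strand): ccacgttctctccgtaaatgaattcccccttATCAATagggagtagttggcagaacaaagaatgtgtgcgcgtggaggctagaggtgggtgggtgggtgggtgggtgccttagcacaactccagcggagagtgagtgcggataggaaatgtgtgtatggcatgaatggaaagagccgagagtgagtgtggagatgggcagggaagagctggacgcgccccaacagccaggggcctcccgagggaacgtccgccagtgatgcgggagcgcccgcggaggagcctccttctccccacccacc
ANK2, downstream window (chr4:112818409-112818708, plus strand): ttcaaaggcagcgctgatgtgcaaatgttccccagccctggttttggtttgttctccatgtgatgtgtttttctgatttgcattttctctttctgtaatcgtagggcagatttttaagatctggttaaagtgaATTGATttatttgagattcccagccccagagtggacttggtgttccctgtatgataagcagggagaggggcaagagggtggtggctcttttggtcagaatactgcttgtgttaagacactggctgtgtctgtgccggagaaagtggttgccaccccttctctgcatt

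HMGN5, with a core beside its start, had 31.2 and 33.2 CPM in LNCaP OC2_OE, 4.75 and 7.13 CPM in Control and 12.98 and 11.8 CPM in shCon. The forkhead core TGTTTAC, searched on both strands, was found for 3 genes (4.55%), against 3.39% of genes at the required level and 4.19% of all genes. The steroid receptor element, AGAACA followed after 3 bases by TGTTCT, was found for 0 of the 66 genes and for 1 of all genes. The median GC content was 65% for the 66 genes and 65.3% for genes at the required level, and the median number of CpG was 24 and 26. These matches describe the letters of the windows and say nothing of binding.

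The genes were spread over many chromosomes. Chromosome 1 held 11 of them among 1049 genes at the required level, and chromosome 7 held 9 among 475 (1.90%, against 0.803% overall): PEG10, CACNA2D1, LAT2, IGFBP3, FSCN1, MET, ACHE, ETV1 and CLIP2. LAT2 and CLIP2, on the same strand, lie 89.8 kb apart. Of the 81 genes, 79 are protein-coding and 2 are antisense transcripts. Exons of 7 (ZNF503, CHD5, DNAJC6, ETV5, ACSL4, RIPOR2 and HSD17B11) overlap another gene on the same strand and those of 22 overlap only one on the other strand, VIM, PEG10 and LAMA1 among them. Whether counting used strand is not given in the sources, so reads of such neighbours cannot be told apart.

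Of 31 gene lists, 15 held at least 1 of the 81 genes, and 61 of the 81 were in no list. The other genes of the lists were read by edgeR over all genes. Of all genes tested, 32.1% rose and 29% fell in LAPC4. In LNCaP 31.6% rose and 29.3% fell against Control, and 33.2% and 30.8% against shCon. A list whose counts lie near these shares shows nothing particular to it. Of the mesenchymal list, which holds VIM and LGALS1, 14 of 21 others tested rose in LAPC4 OC2_OE and 3 fell. In LNCaP OC2_OE 8 of 13 rose and 2 fell against Control, and 6 rose and 3 fell against shCon. FN1, fibronectin, is one of these, with 738 ± 50.8 CPM in LNCaP OC2_OE and 400.4 ± 6.41 CPM in Control (SD, n = 2 each). In LAPC4 it was not called, with 146 ± 9.35 CPM in OC2_OE and 227 ± 124 CPM in Vec (SD, n = 3 each, log2 fold change -0.63, edgeR adjusted p = 0.0952). Of the actin and annexin list, which holds CAVIN1, 25 of 28 others rose and 1 fell in LAPC4, and in LNCaP 11 of 20 rose and 5 fell against Control, and 9 of 20 rose and 5 fell against shCon. Of the proteases and inhibitors, which hold TIMP1, 21 of 23 others rose and 1 fell in LAPC4, whereas in LNCaP 4 of 19 rose and 11 fell against Control, and 4 of 18 rose and 10 fell against shCon.

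The neuronal cytoskeleton list, with DPYSL3 and STMN3, had 10 rises and 6 falls among 21 others in LAPC4, and 15 rises and 1 fall among 20 in LNCaP against Control. Against shCon it had 13 rises and 4 falls among 20. The neuroendocrine list, with SV2A, had 9 rises and 6 falls among 17 others in LAPC4, and 14 rises and 1 fall among 18 in LNCaP against Control. Against shCon these were 14 rises and 4 falls among 18. TGF-beta and BMP signalling, with TGFB1 and ID1, had 14 rises and 5 falls among 23 others in LAPC4, and 7 rises and 6 falls among 18 in LNCaP against Control. Against shCon 6 rose and 3 fell among 16. The epithelial junction list holds none of the 81 genes, and all 20 of its genes fell in LAPC4 OC2_OE. In LNCaP it had 2 rises and 11 falls among 20 against Control, and 6 and 11 among 20 against shCon. Other lists without any of the 81 genes also moved in LAPC4. Antigen presentation had 15 rises and 1 fall among 17, interferon-stimulated genes 15 and 3 among 21, and hypoxia and glycolysis 17 and 3 among 24. Falls led for luminal prostate (3 rises, 14 falls), androgen receptor targets (3, 8) and cancer-testis antigens (1, 8). Rises in LAPC4 were thus not particular to lists that hold some of the 81 genes.

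Among the other integrins, laminins and collagens (the list of LAMA1), 17 rose and 2 fell of 25 in LAPC4, 11 rose and 6 fell of 23 in LNCaP against Control, and 8 rose and 10 fell of 23 against shCon. Of the basal and stem genes beside CD44, 12 rose and 3 fell of 17 in LAPC4, 4 rose and 4 fell of 9 in LNCaP against Control, and 4 rose and 5 fell of 10 against shCon. In both of these lists, more genes rose than fell in LAPC4 and falls were at least as many as rises in 1 LNCaP contrast or more. Of the receptor kinases and ligands beside MET and EPHA2, 13 rose and 11 fell of 24 in LAPC4, 7 rose and 6 fell of 19 in LNCaP against Control, and 2 rose and 5 fell of 18 against shCon. Of the prostate cancer surface targets beside CD44 and CD55, 6 rose and 10 fell of 17 in LAPC4, 3 rose and 11 fell of 15 in LNCaP against Control, and 3 rose and 8 fell of 15 against shCon.

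Of the lipid and sterol genes beside FABP5, 7 rose and 10 fell of 26 in LAPC4, 15 rose and 8 fell of 25 in LNCaP against Control, and 18 rose and 3 fell of 24 against shCon. Of the chromatin and oncofetal genes beside IGF2BP1, IGF2BP2 and PEG10, 7 rose and 9 fell of 19 in LAPC4, 9 rose and 1 fell of 19 in LNCaP against Control, and 12 rose and 4 fell of 19 against shCon. In both of these lists, more genes fell than rose in LAPC4, and more rose than fell in both LNCaP contrasts. Of the androgen-repressed genes beside PEG10, 2 rose and 7 fell of 11 in LAPC4, 6 rose and 5 fell of 13 in LNCaP against Control, and 4 rose and 9 fell of 13 against shCon. Of the lineage transcription factors beside ONECUT2, 10 rose and 12 fell of 30 in LAPC4, 13 rose and 7 fell of 28 in LNCaP against Control, and 11 rose and 10 fell of 28 against shCon. Of the ion channels and pumps beside CACNA2D1, 5 rose and 11 fell of 18 in LAPC4, 9 rose and 6 fell of 17 in LNCaP against Control, and 6 rose and 6 fell of 17 against shCon.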

How the data were processed

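RNA of 23 libraries was sequenced. The authors deposited gene count tables for LNCaP and LAPC4 and for the drug experiment. The LAPC4 table and the enzalutamide columns hold whole counts as the authors deposited them. The LNCaP table and the combination and vehicle columns hold estimated counts as the authors deposited them, and these were rounded to whole numbers for the tests. Reads were checked with FastQC 0.9.0 and Bowtie2 and hg38 are named, per the submitters' processing notes; the counting program is not given in the sources used here. Rows of the drug table were matched by symbol, and 64.7% found an Ensembl identifier. Enzalutamide columns name their group only.

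The 81 genes were chosen from raw CPM with a pseudocount of 0.5, a mean of at least 5 CPM in both overexpressing groups and a ratio of at least 2 in all 3 contrasts. These members and the gene lists were chosen with earlier results of these data known. Tests used edgeR 4.0.16 (quasi-likelihood, TMM scaling, filterByExpr, R 4.3.3) over all genes, with Benjamini-Hochberg adjustment at 0.05. The scripts were tested on simulated data. DESeq2 1.42.0, RLE size factors, no filter, left-out libraries and a replicate block were alternatives. Genes were named by a rule: ONECUT2, the members with the largest ratios, the highest levels, the largest called changes without overlap, those nearest the threshold, those in a gene list, those called alike in the hairpin and combination contrasts, and those with a promoter core. CNN3, FBLN1, HSPG2, TMEM200B, AGAP2-AS1, RADX and a few others outside it were chosen after their values were seen.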

Additional observations from a re-analysis of the deposited data

How the results depend on the processing

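The number of genes chosen depends on the thresholds. It was 155 at a ratio of 1.5, 46 at a ratio of 3, 202 at a minimum of 1 CPM and 46 at a minimum of 10 CPM. It was 82, 80 and 89 with pseudocounts of 0.1 and 1 and with TMM-scaled CPM, and 81 to 83 with single libraries left out. In the hairpin comparison the 14 lower calls became 9 by DESeq2 and 9 with no low-count filter. With single libraries left out they ranged from 8 to 12 and the 23 higher calls from 16 to 21, and the lower calls numbered 8 without shOC2 replicate 1 and 9 without shOC2 replicate 2. The corresponding ranges were 22 to 25 higher and 8 to 10 lower for the combination against vehicle, 31 to 34 and 9 to 11 for enzalutamide against vehicle, and 14 to 17 and 21 to 27 for the combination against enzalutamide. No result reversed. The cause of these differences was not tested. Same-numbered replicates did not deviate together (r = -0.049 in the hairpin comparison, and 0.019, 0.108 and 0.048 in the combination against vehicle). With the replicate block, 23 genes were higher and 13 lower with the hairpin, and 22 higher and 10 lower with the combination. Groups of 2 or 3 libraries and low counts limit what could be detected.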
